A study of Mus musculus with 12 samples.

Results

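The main cluster of replication-dependent histone genes of the mouse was examined in 4 lists of open chromatin from intestinal epithelium. Its members were all peaks that overlapped chr13:21780000-23880000 of the mm9 build, a window of 2.1 Mb. The window was set by position and not by a peak value, but it was chosen with earlier results of these data known. It held 332 of the 210325 peaks of the series: 78 of 45461 in the Negative list, 89 of 52113 in Sublow, 89 of 58356 in Low and 76 of 54395 in High. Merging across the lists joined peaks that touched or shared 1 bp or more, which gave 106 regions in the window of 82365 in the genome. At the edges of the window, the first region inside was chr13:21801910-21803114, held by all 4 lists, and the last region before it was chr13:21642680-21642816, held by Low. On the other side, the last region inside was chr13:23878586-23879074, held by Negative, and the next outside was chr13:23898422-23898897, held by Negative and Low.

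The cells came from the intestinal epithelium of C57Bl/6 mice and were sorted by the level of a Sox9 reporter, Sox9EGFP, which all 4 populations share. Sox9 is a transcription factor of the intestinal crypt. From no reporter to most, the sorted groups are Sox9 Negative, Sox9 Sublow, Sox9 Low and Sox9 High, with 3 Omni-ATAC-seq libraries each (replicates A to C), and the sources used here do not give the age of the mice. Omni-ATAC-seq is an assay in which a transposase cuts and tags DNA that is accessible in the nucleus. In earlier work with such reporter mice, the Low gate enriched stem cells of the crypt base and the Sublow gate transit-amplifying progenitors, both of which divide, while the High gate enriched enteroendocrine and tuft cells and the Negative gate mature cells. Sorted populations are enriched, not pure, and cell division was not measured here. Each population is given as 1 consensus list for its 3 libraries, with no read count, so no value below has a replicate error, no test between populations could be made, and depth is unknown. The markers of these cell types were not analysed here, since no peak was assigned to a gene.

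Replication-dependent histone genes supply the histones that package newly copied DNA, and their transcription rises as cells enter S phase. The core histones H2A, H2B, H3 and H4 form the nucleosome, and linker histone H1 binds the DNA between nucleosomes. Many near-identical copies of these genes lie side by side, and their transcripts end in a stem-loop instead of a poly(A) tail. The intestinal crypt is among the most rapidly dividing tissues of the adult mouse, so the question put to these lists was whether the cluster was more open in the populations linked to division (Low and Sublow) than in the others (High and Negative).

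In the RefSeq gene order of the GRCm38.p6 build, the cluster runs from H2bc13 to H1f1 and holds 52 protein-coding histone genes, of which 6 encode H1, 12 encode H2A, 14 encode H2B, 9 encode H3 and 11 encode H4. They stand in 2 blocks. The first block has 23 of them, from H2bc13 to H2bc11, with Zfp184 (a zinc finger gene), Pom121l2 and Prss16 (a serine protease gene of the thymus) among them. The second block has 29, from H4c8 to H1f1, with Hfe, a regulator of iron uptake, among them. Between the blocks lie 36 vomeronasal receptor genes, whose products detect pheromones in the nose, and 39 vomeronasal receptor pseudogenes, followed by Zfp322a, Abt1, Btn1a1 and Btn2a2. The cluster is also rich in tRNA genes, which are short and transcribed by RNA polymerase III: 32 lie in the first block, 45 lie between the vomeronasal receptor genes and the second block, and none lies within the second block. That build differs from the build of the peaks, so this order gives names only, and which peaks lie at histone, tRNA or other genes was not analysed here.

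The promoters of the histone genes share short sequences that the peak lists did not use. RefSeq promoters (GRCm38.p6) were matched by gene ID for 49 of the 52 genes, and the 250 bases before the start were searched on both strands for 4 motifs. CCAAT, the core of the site of the factor NF-Y, was present in 41 of 49 promoters (83.7%), against 34.4% of the 26976 other genes with a promoter. It was found in each of the matched H1, H2A, H2B and H3 promoters (6, 12, 13 and 7 of them) and in 3 of 11 H4 promoters. The octamer ATTTGCAT, which POU factors such as Oct-1 bind, was present in 8 of 49 (16.3%, against 1.58%), and these were 4 H2A and 4 H2B promoters. TATAAA was present in 24 of 49 (49%, against 12.9%) and in members of every family. An E2F core, TTTGGCGC or TTTCCCGC, was present in 1 of 49 (2.04%, against 1.35%), the H4c1 promoter. A match is a description of the letters in this window of sequence, and overlapping matches were counted separately. Where an H2A and an H2B gene lie head to head, 1 site can count for both promoters, as does the octamer of H2ac12 and H2bc12. The counts of promoters are thus not counts of separate sites.

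For each family 1 promoter is shown: the one with the most kinds of motif, then the most matches, and on a tie the first in gene order. H1f5 tied with H1f3, and H2bc12 with H2bc3. Being the richest by this rule, the promoters shown do not stand for the rest of their families. Each line gives the 250 bases before the start of 1 gene on chromosome 13 of GRCm38.p6, 5′ to 3′ in the direction of the gene, with the matches in capitals.
H1f5 (H1, minus strand): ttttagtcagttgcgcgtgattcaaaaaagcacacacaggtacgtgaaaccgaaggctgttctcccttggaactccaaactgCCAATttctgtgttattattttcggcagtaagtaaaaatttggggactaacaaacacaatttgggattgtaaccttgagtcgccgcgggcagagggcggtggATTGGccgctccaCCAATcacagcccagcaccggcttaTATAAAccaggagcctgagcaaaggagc
H2ac6 (H2A, minus strand): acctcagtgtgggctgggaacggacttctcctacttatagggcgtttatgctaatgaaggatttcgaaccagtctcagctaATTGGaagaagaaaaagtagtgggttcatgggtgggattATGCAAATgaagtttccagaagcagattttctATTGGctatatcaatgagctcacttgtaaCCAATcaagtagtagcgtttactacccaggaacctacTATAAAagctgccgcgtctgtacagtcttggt
H2bc12 (H2B, plus strand): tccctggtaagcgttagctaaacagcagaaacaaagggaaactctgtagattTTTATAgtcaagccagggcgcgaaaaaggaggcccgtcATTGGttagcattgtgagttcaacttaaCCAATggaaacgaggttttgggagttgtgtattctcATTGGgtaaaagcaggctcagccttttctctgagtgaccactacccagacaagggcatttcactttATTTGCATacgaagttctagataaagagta
H3c4 (H3, plus strand): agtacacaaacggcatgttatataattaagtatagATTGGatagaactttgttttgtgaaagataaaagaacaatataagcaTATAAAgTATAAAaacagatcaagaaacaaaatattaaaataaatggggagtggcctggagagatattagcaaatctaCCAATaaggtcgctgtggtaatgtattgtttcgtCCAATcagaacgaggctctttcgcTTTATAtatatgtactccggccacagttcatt
H4c1 (H4, minus strand): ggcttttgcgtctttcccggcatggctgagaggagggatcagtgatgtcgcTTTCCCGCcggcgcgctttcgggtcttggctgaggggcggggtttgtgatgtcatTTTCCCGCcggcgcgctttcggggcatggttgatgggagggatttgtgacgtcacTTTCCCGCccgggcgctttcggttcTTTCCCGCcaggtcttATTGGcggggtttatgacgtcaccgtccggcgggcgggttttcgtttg

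In H1f5 the TATAAA match began 28 bases before the start, and CCAAT matches began 53, 66 and 168 bases before it. In H2ac6 TATAAA began 32 bases before the start, and the octamer, here as its reverse complement ATGCAAAT, began 130 bases before it between 2 of the CCAAT matches. In H2bc12 the octamer began 30 bases before the start and the nearest TATAAA match, on the other strand, 198 bases before it. The H4c1 promoter held TTTCCCGC at 4 places, 64, 89, 144 and 199 bases before the start, with the single CCAAT match at 48. H2A and H2B genes often share 1 stretch of promoter: among the genes with a matched promoter, 9 neighbouring pairs of an H2A and an H2B gene, such as H2ac8 with H2bc8 and H2ac12 with H2bc12, lay head to head and pointed away from each other.

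The cluster held more peaks per length than the rest of the chromosome in each list. The density was 37.1 peaks per Mb in Negative and 36.2 in High, and it was 42.4 in both Sublow and Low. In the order Negative, Sublow, Low and High, the rest of chromosome 13 had 16.5, 18.9, 21.5 and 20.2. The peaks covered 60.5 kb in Sublow and 59.8 kb in Low, against 45.7 kb in High and 42.6 kb in Negative. The Low and Sublow lists thus had the most peaks and the most covered bases, and Negative and High were close to each other.

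Set against the whole genome, the lead of Low and Sublow over High was larger in the cluster in number of peaks, while the lead over Negative was not. Low had 1.17 times as many peaks as High in the cluster and 1.07 times in the genome, and Sublow had 1.17 times as many as High in the cluster and 0.958 times in the genome. Against Negative, Low had 1.14 times as many peaks in the cluster and 1.28 times in the genome, and Sublow 1.14 and 1.15 times. In covered bases, Low exceeded High 1.31-fold in the cluster and 1.16-fold in the genome, and exceeded Negative 1.4-fold in both. Sublow exceeded High 1.32-fold (1.11-fold in the genome) and Negative 1.42-fold (1.33-fold). These ratios have no replicate error, and the differences between cluster and genome were not tested.

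Peaks in the cluster were wide. Median widths were 559 bp in Sublow and 541 bp in Low, against 509.5 bp in High and 462 bp in Negative, which was 1.2, 1.25, 1.33 and 1.17 times the median of the whole list. Peaks of at least 1000 bp made up 12.8% of the cluster's peaks in Negative (10 peaks), 22.5% in Sublow (20), 22.5% in Low (20) and 17.1% in High (13), against 6.81%, 11.1%, 8.95% and 7.67% of the whole lists. The order of the populations by median width, Sublow and then Low first, was that of the genome for these 2, whereas High was above Negative in the cluster and below it in the genome (383 and 394 bp).

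**Figure D1:**
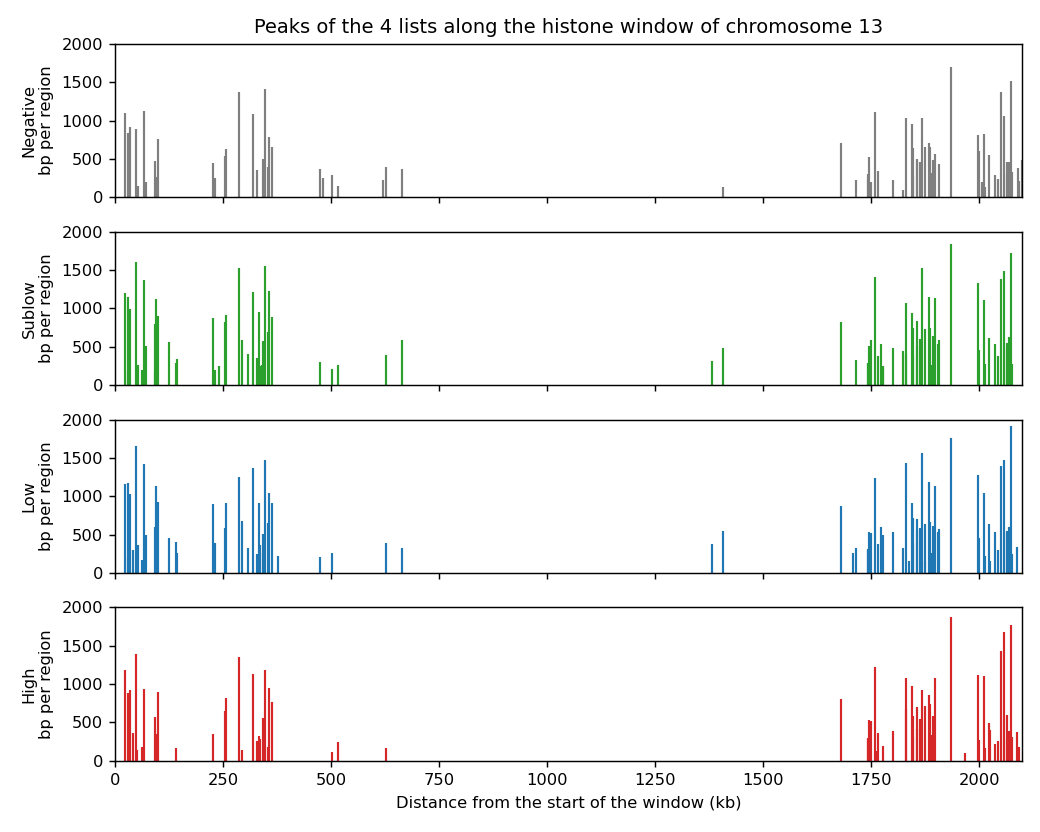
Each vertical line is 1 merged region of the histone window, placed at its centre by distance from the start of the window in kb, with its height the summed width in bp of that list's peaks in it; the 4 panels are the Negative, Sublow, Low and High lists. Regions crowd at both ends of the window in each list, and a stretch of 718 kb between them holds no peak of any list.

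The open regions fell into 2 blocks with a nearly empty middle. The longest stretches without a region of any list were chr13:22443183-23161175 (718 kb), chr13:23186709-23460576 (274 kb) and chr13:22295314-22399990 (105 kb). The first 2 left only 2 regions between them. One, chr13:23161176-23161558, was held by Sublow (320 bp) and Low (383 bp), and the other, chr13:23186165-23186708, by Negative (132 bp), Sublow (489 bp) and Low (544 bp), so High held no peak from 22443183 to 23460576. Before these stretches lay 46 regions over 641 kb, or 7.17 regions per 100 kb, and after them 58 regions over 418 kb, or 13.9 per 100 kb. From here on, the first and the second block mean these sets of regions. They were not matched to the blocks of histone genes and may include regions at other genes. The lists were alike in where the cluster was open at this scale.

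In bins of 100 kb from the start of the window, 7 of 21 bins held no region and 5 bins held 10 or more. The bin with the most regions was chr13:23780000-23879999, with 20, of which 11 were held by all 4 lists. Next came chr13:23580000-23679999, with 19 regions, of which 15 were held by all 4 lists. The empty bins were the 6 consecutive bins of chr13:22480000-23079999 and the bin chr13:23280000-23379999. Low and Sublow both covered more bases than both High and Negative in 10 of the 14 bins with a peak (71.4%, exact 95% interval 41.9 to 91.6%), and the reverse occurred in none of the 14, for which the exact interval reaches 23.2%. Over the genome, 39.1% of such bins had Low and Sublow ahead and 2.85% the reverse. The bins of the genome were not matched to those of the cluster in their number of peaks. The intervals hold for counting error alone, as if neighbouring bins were independent, and no test was made. Among the bins with Low and Sublow ahead, those starting at 23080000, 23180000 and 23380000 held only 1 region each.

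**Figure D2:**
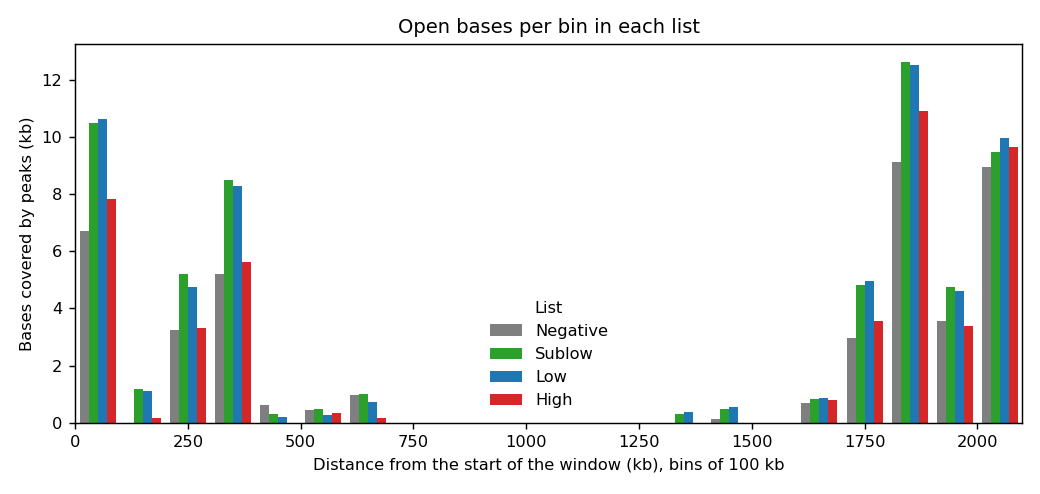
Bars give the kb covered by peaks in each bin of 100 kb along the window, by list (no error bars, since each population is 1 list). In 10 of 14 bins with a peak the Low and Sublow bars both stand above the High and Negative bars, and in the last bin the 4 lists run from 8960 to 9959 bp.

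The lead of Low and Sublow differed in size between the blocks, in a split chosen after the peaks were seen. In the first block Sublow covered 27150 bp, Low 25945 bp, High 17470 bp and Negative 17212 bp, so Low exceeded High 1.49-fold and Negative 1.51-fold. In the second block the values were 32498 bp in Sublow, 32942 bp in Low, 28260 bp in High and 25286 bp in Negative, and Low exceeded High 1.17-fold and Negative 1.3-fold. Over the genome, Low exceeded High 1.16-fold and Negative 1.4-fold, so the second block showed no larger lead over Negative and nearly the same lead over High. Peak numbers followed: 40 in Sublow, 38 in Low, 31 in High and 30 in Negative in the first block, against 47, 49, 45 and 47 in the second. In the second block Low thus had 1.04 times as many peaks as Negative (1.28 times in the genome) and 1.09 times as many as High (1.07 times), ratios below those of its covered bases. The difference between the blocks was not tested. Within the last bin of 100 kb, Negative had the most peaks (18, against 13 in Sublow, 15 in Low and 15 in High). It also had the most in the sparse bins chr13:22180000-22279999 (2 peaks) and chr13:22380000-22479999 (3 peaks).

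Regions shared by all populations were the largest class under the merging used here. All 4 lists held 56 of the 106 regions, 52.8% (exact 95% interval 42.9 to 62.6%), where the whole genome had 33.1% and the rest of chromosome 13 had 29.4%. At a reciprocal overlap of 50% the share was 37.5% in the cluster and 24.8% in the genome. These intervals hold for counting error alone, as if neighbouring regions were independent, and no test of the difference was made. The shared regions made up 74.7% of the cluster's Negative regions, 64.4% of its Sublow regions, 63.6% of its Low regions and 76.7% of its High regions. Their median merged width was 831 bp, against 743 bp for such regions of the genome. In the first block 43.5% of regions were in all 4 lists and in the second 62.1%.

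Regions of a single list were few. High alone held 4 regions (3.77%, exact interval 1.04 to 9.38%), where 16.6% of the regions of the genome were held by High alone. Negative alone held 7 (6.6%, against 6.82% in the genome), Low alone 4 (3.77%, against 6.41%) and Sublow alone 3 (2.83%, against 2.06%). Only the High share had an interval that did not reach the genome's value. No region was held by just Negative and Sublow, by just Negative and Low, or by all but Sublow. For each of these, 0 of 106 allows a share of up to 3.42% by the exact interval, and the genome shares of 3.17%, 0.318% and 0.357% all lie within it.

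**Figure D3:**
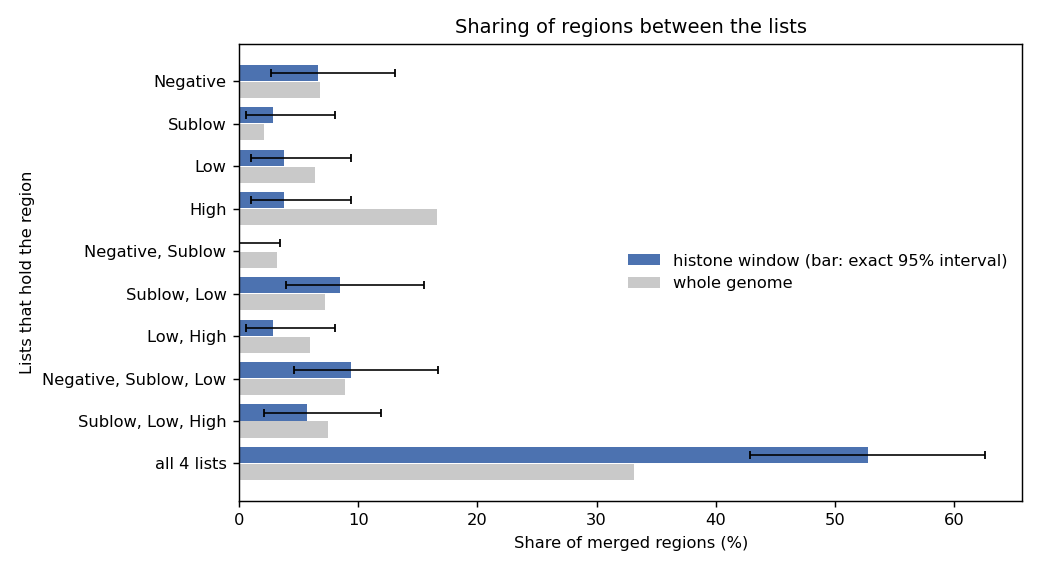
Share of merged regions in % by the lists that hold them, for 10 of the 15 possible combinations, in the histone window (blue, 106 regions, lines are exact 95% intervals of counting error) and the whole genome (grey, 82365 regions). Regions of all 4 lists make up 52.8% in the window and 33.1% in the genome, and regions of High alone 3.77% and 16.6%.

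Regions found only in the populations linked to division were about as frequent as in the genome. Low or Sublow, and neither High nor Negative, held 16 regions (15.1%, exact interval 8.88 to 23.4%), where 15.7% of all regions of the genome did so. With peaks under 200 bp left out, the share was 23.5% in the cluster and 18% in the genome. Of these, 9 were held by both Low and Sublow (8.49%, against 7.18%). The 6 widest by merged width, which spans the peaks of both lists, were all held by both. Over the genome, the median merged width was 345 bp for regions of just these 2 lists. It was 184.5 bp for Sublow alone and 205 bp for Low alone. The widest was chr13:23552472-23553075, with a Sublow width of 541 bp and a Low width of 604 bp. Next were chr13:21904004-21904562 (559 bp in Sublow, 451 bp in Low) and chr13:23684919-23685458 (532 and 529 bp). Then came chr13:23557258-23557761 (247 and 493 bp), chr13:22087302-22087706 (405 and 327 bp) and chr13:23161176-23161558 (320 and 383 bp). They were spread over both blocks, with 9 of the 16 in the first, 6 in the second and 1 between.

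The reverse class, held by High or Negative and by neither Low nor Sublow, had 12 regions (11.3%, exact interval 5.99 to 18.9%), where 24.1% of the regions of the genome belonged to it. When peaks were joined only at a reciprocal overlap of 50%, the share was 23.4% in the cluster and 30.2% in the genome. Negative alone held chr13:22260261-22260509, chr13:22282278-22282565 and chr13:22399991-22400215 in the first block, with widths of 249, 288 and 225 bp. In the last bin of the window it alone held chr13:23779984-23780119 (136 bp, centred just inside this bin), chr13:23785761-23785958 (198 bp), chr13:23870103-23870480 (378 bp) and chr13:23878586-23879074 (489 bp). These 7 fell at 2 places, the sparse end of the first block and the end of the window. High alone held chr13:21829453-21829594 (142 bp), chr13:23540990-23541119 (130 bp), chr13:23746389-23746492 (104 bp) and chr13:23817197-23817414 (218 bp), all narrow. Both High (182 bp) and Negative (209 bp) held chr13:23870995-23871203. In all, 6 of the 12 lay in the last bin, beside no region of Low or Sublow only. That bin was the fullest, with 20 of the 106 regions of the window, and the placement of the class was not tested.

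Regions missing from a single population mostly lacked a High or a Negative peak, as they did in the genome. There, 0.357% of regions lacked just a Sublow peak and 0.526% just a Low peak. Negative, Sublow and Low shared 10 regions that High lacked (9.43%, against 8.92% in the genome), and Sublow, Low and High shared 6 that Negative lacked (5.66%, against 7.49%). All 6 regions missing from Negative alone lay in the first block, and those missing from High alone lay in the first block (5), between the blocks (1) and in the second (4). The first block had 46 regions in all and the second 58. The blocks were split after the peaks were seen, and this placement was not tested. The widest missing from Negative was chr13:22112143-22113112, with widths of 959 bp (Sublow), 914 bp (Low) and 323 bp (High). The widest missing from High was chr13:23687539-23688134, with widths of 436 bp (Negative), 595 bp (Sublow) and 573 bp (Low). In 7 of the 10 regions missing from High the Negative peak was the narrowest of the 3, and in 4 of the 6 missing from Negative the High peak was the narrowest, shares of 70% (exact interval 34.8 to 93.3%) and 66.7% (22.3 to 95.7%). Both intervals reach the shares of the genome, 52.3% and 42.4%.

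Peak widths could be compared directly in the 52 regions with exactly 1 peak in each list. Their median widths were 774.5 bp in Sublow and 660 bp in Low, with ranges of 269 to 1842 bp and 222 to 1921 bp, against 622.5 bp in High (range 166 to 1881) and 556.5 bp in Negative (range 137 to 1699). The ranges overlapped almost wholly, since regions differed far more from each other than lists did. Within a region, the Low peak was wider than the Negative peak in 43 of 52 regions, with a median log2 ratio of 0.32 (quartiles 0.05 to 0.47), and wider than the High peak in 36, with a median of 0.12 (-0.05 to 0.40). The Sublow peak was wider than the Negative peak in 45 regions (median log2 ratio 0.23, quartiles 0.12 to 0.62) and wider than the High peak in 39 (0.17, 0.00 to 0.41). Over the genome the same 4 medians were 0.22, 0.11, 0.24 and 0.13, so the width ratios of the cluster were of the size seen elsewhere.

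Both the Low and the Sublow peak were wider than both the High and the Negative peak in 31 of the 52 regions (59.6%, exact interval 45.1 to 73%), and the interval reaches the 49.4% of the genome. The reverse held in 3 regions (5.77%, against 3.06%), at chr13:23622735-23623716, chr13:23667527-23667884 and chr13:23855422-23855748. The Negative peak was the narrowest of the 4 in 33 regions (63.5%, against 56.3%), and the Sublow peak the widest in 23 (44.2%, against 38.1%). These shares lay near the background of the genome, and a wider peak in Low and Sublow was common to regions across the genome and not shown to be larger here.

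**Figure D4:**
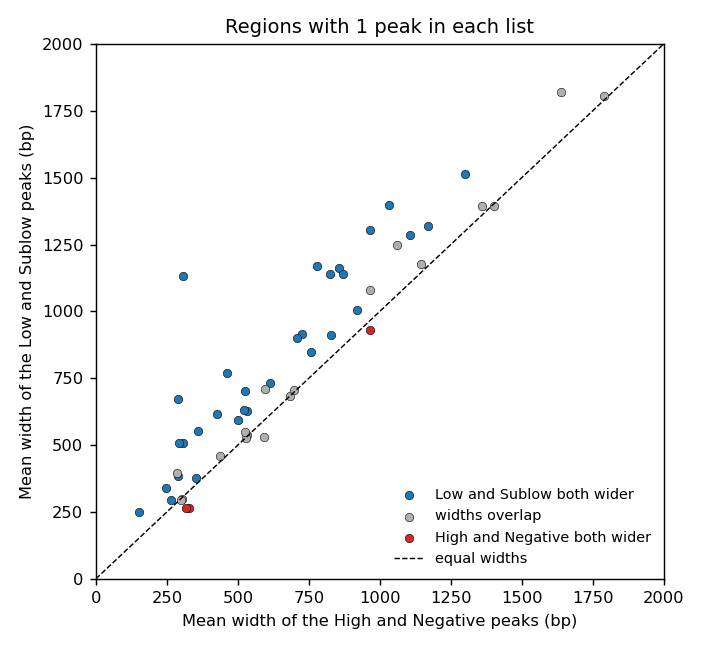
Each point is 1 of the 52 regions of the window with 1 peak per list, with the mean width in bp of its High and Negative peaks on the x axis and of its Low and Sublow peaks on the y axis. Points above the dashed line are wider in Low and Sublow (43 of 52); in the 31 blue regions both of these peaks exceed both others, and in the 3 red ones the reverse holds.

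A single region stood out for the size of its difference and was picked after the values were seen. At chr13:21874226-21875365, in the first block, the peak was 1129 bp wide in Sublow and 1138 bp in Low, against 348 bp in High and 263 bp in Negative, so the narrower of the first 2 was 3.24 times the wider of the others. The next largest such ratios were 1.64 at chr13:22132637-22133335 (Sublow 699 bp, Low 649 bp, High 181 bp, Negative 396 bp) and 1.61 at chr13:23844009-23844530 (495, 522, 279 and 308 bp). In the other regions called in that direction, the 2 sets of widths were closer than this. How many regions of the genome reach such ratios was not counted, so the region is not shown to be unusual.

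The 5 widest regions of the cluster were held by all 4 lists. The merged width spans the peaks of every list, so it tends to grow with the number of lists. Over the genome, its median was 743 bp for regions of all 4 lists and 184.5 to 245 bp for regions of a single list. The widest, chr13:23852675-23854613 (1939 bp), had a Negative peak of 1515 bp, a Sublow peak of 1722 bp, a Low peak of 1921 bp and a High peak of 1765 bp. At chr13:23712652-23714545 (1894 bp) the widths were 1699, 1842, 1766 and 1881 bp in the same order, and at chr13:22065939-22067502 (1564 bp) they were 1373, 1530, 1258 and 1350 bp. In these 3, Low and Sublow did not both exceed High and Negative. The other two of the 5 were split into several peaks in some lists. At chr13:23837115-23839041 (1927 bp) High had 1 peak of 1675 bp, while Negative (290 and 777 bp), Sublow (435 and 1057 bp) and Low (501 and 973 bp) had 2 peaks each. At chr13:21825985-21827640 (1656 bp) Sublow and Low had 1 peak each, of 1600 and 1656 bp, while Negative (301 and 591 bp) and High (600 and 796 bp) had 2.

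Such splits occurred in 5 regions of the cluster (4.72%, exact interval 1.55 to 10.7%), against 2.54% of the regions of the genome. The same form as at chr13:21825985-21827640 was seen at chr13:23646828-23648387, where Sublow (1531 bp) and Low (1560 bp) had 1 peak and Negative (603 and 433 bp) and High (422 and 504 bp) had 2. At chr13:22005770-22006702 only High was split, into 187 and 164 bp, against a single Negative peak of 451 bp, a Sublow peak of 880 bp and a Low peak of 901 bp. At chr13:23610890-23611560 Sublow had 2 peaks (177 and 216 bp) and High 1 of 671 bp, with none in Negative or Low. In 3 of the 5 regions High was thus split while Sublow and Low had 1 peak each (60%, exact interval 14.7 to 94.7%), a form that made up 21.6% of the split regions of the genome. In the other two Sublow was split and High was not.

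Over bases, the lists overlapped more in the cluster than in the genome for each of the 6 pairs. The Jaccard index, which is the share of the bases in either list that lie in both, was 0.845 for Sublow and Low (0.743 in the genome), 0.665 for Negative and High (0.441), 0.65 for Low and High (0.541), 0.647 for Sublow and High (0.504), 0.631 for Negative and Sublow (0.612) and 0.613 for Negative and Low (0.522). The pair linked to division was the nearest in both. Negative and High, at opposite ends of the reporter range, were the least alike of the pairs in the genome and the second most alike in the cluster. These indices share the same 4 lists and are given as a description, with no test.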

How the data were processed

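Open chromatin was measured by Omni-ATAC-seq in 4 sorted populations (3 libraries each; the labels of each library give 12000 cells collected per population). For each population the authors deposited 1 consensus list of peaks, which holds only a chromosome, a start and an end. Per the submitters' processing notes the tools included MACS2 2.1.2, Bowtie2 2.3.4 and Trim Galore 0.4.3, beside deepTools 2.5.2 and Picard 2.10.3, and the build was mm9. Their settings, any Tn5 shift and how libraries were combined are not given in the sources used here. A region counted as missing from a population when its list had no peak there.

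Starts and ends were read as both lying inside the peak and counting from 1, since each list holds peaks whose start equals their end. Regions were merged and counted with Python 3.11.15, and exact Clopper-Pearson intervals (95%) came from scipy 1.17.1. The merging code was run on 5000 simulated regions, of which 100% received the right pattern. In that simulation the peaks of a region always overlapped and regions never met, so it checks the code only. Split peaks and close neighbours were not simulated. Regions were named by a fixed rule: the 5 widest, the 6 widest of Low or Sublow only, all of High or Negative only, the fullest and the empty bins, and the 3 longest empty stretches. Others named were chosen after their values were seen. The window, motifs and rule were chosen with earlier results of these data known. The gene lists and cell type markers set for an annotation of mm9 were not used.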

Additional observations from a re-analysis of the deposited data

How the results depend on the processing

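No paired analysis was possible because the 3 libraries of a population are combined in 1 list, and no library could be left out. Of 67 values under the alternatives, 54 stayed within 1.5-fold of the count or inside the exact interval of the share, and 13 did not. With the widest 22730 peaks of each list, which holds fewer peaks by construction, the cluster had 40 peaks in High, 49 in Low, 46 in Negative and 49 in Sublow, and 57 regions. With the window shortened by 100 kb at each end, it had 49 peaks in High and 50 in Negative, and covered bases were 28271 in High, 39228 in Low and 27094 in Negative. A reciprocal overlap of 50% gave 37.5% of regions in all 4 lists (24.8% in the genome) and 23.4% in High or Negative only (30.2% in the genome). Peaks of at least 200 bp gave 23.5% in Low or Sublow only (18% in the genome); the cause was not tested. The share of regions with both Low and Sublow peaks wider stayed between 56.2% and 60.9% under its 6 alternatives. Depth is unknown, so a closed region cannot be told apart from a missed one.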
